A study of Mus musculus with 2 samples.

Results

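The aryl hydrocarbon receptor, its dimer partner and 4 genes it is known to drive were described in 4T1 cells, a mouse mammary carcinoma line, treated with astragalin (AS). The 6 genes were taken by symbol from the table of 14197 genes, namely Ahr, Arnt, Aldh3a1, Nqo1, Cyp1b1 and Tiparp, and all 6 were in it. AS is a plant flavonoid, a glucoside of kaempferol. One group was wild-type 4T1 cells given 20 μM AS for 24 h, and the other was wild-type 4T1 cells given the vehicle, which the study's methods name as DMSO where AS was added to other cultures. Each group was 1 RNA-seq library, so no difference below has a replicate check and no p-value is given. Cells of a single line, sampled once per condition, do not show how other cells respond, and in such bulk RNA a change in every cell cannot be told apart from a change in some of them.

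AHR is a transcription factor of the bHLH-PAS family that waits in the cytoplasm with HSP90 and other chaperones until a small molecule binds it. It then enters the nucleus, pairs with ARNT and binds xenobiotic response elements, whose core reads GCGTG, near genes of foreign-compound metabolism. Many plant flavonoids are known to bind AHR as agonists or antagonists. Some of its targets, Nqo1 among them, are also driven by the oxidative stress factor NRF2 through antioxidant response elements, while Cyp1b1 and Tiparp are used as more direct readouts of AHR.

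The targets did not move together. Aldh3a1 and Nqo1 were several times higher in the AS library, Ahr itself was higher by less than 2-fold, and Arnt, Cyp1b1 and Tiparp stood at nearly the same level in both libraries. Levels are given as RPKM, the reads of a gene divided by its exon length in kilobases and by the size of the library. The log2 fold change is that of AS over vehicle with 0.1 RPKM added to both, which understates the change of low genes, and a gene was called when it was past 1 or -1 on this scale. By this rule 2 of the 6 genes were higher with AS and 0 were lower, while 0.972% of all genes were called, 0.662% as higher and 0.31% as lower. At a smaller threshold of 1.5-fold, 3 of the 6 were higher and 0 lower, where 5.57% of all genes were past it, 3.56% as higher and 2.01% as lower. The 6 genes were chosen with earlier results of these data known, so their counts beside these shares are no test. The members' median log2 fold change was 0.40, and that of all genes was 0.07. Intervals below are 95% Clopper-Pearson intervals for the ratio of reads, or exact Poisson intervals for a level, and they cover counting error only.

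**Figure D1:**
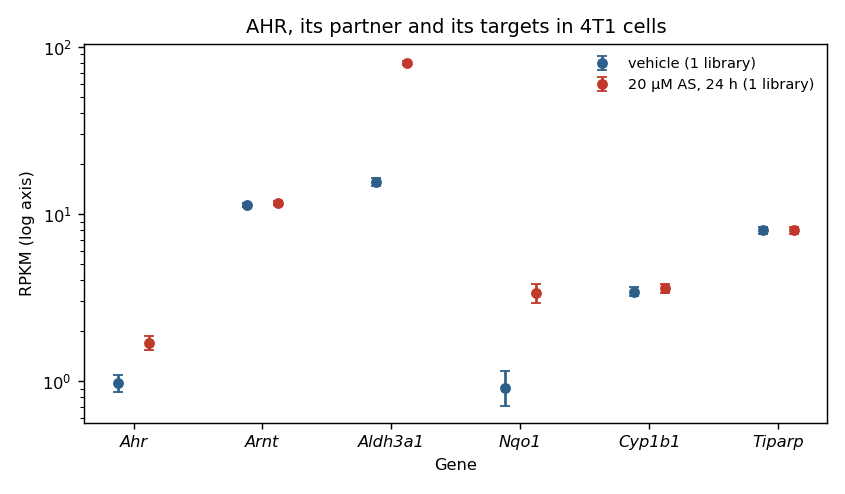
RPKM (log axis) of the 6 genes in the vehicle library (blue) and the AS library (red), with exact 95% Poisson intervals of the reads as bars. Aldh3a1 stood at 15.6 and 80.1 RPKM and Nqo1 at 0.912 and 3.36, while the points of Arnt, Cyp1b1 and Tiparp lie side by side.

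Ahr encodes the receptor. It lies on the minus strand of chromosome 12, from 35497974 to 35535038 in GRCm38, and is protein-coding like the other 5. Its RPKM was 0.971 in the vehicle library (interval 0.865 to 1.09) and 1.69 in the AS library (1.54 to 1.85), from 304 and 468 reads. The AS library was higher, and the intervals of the libraries did not overlap. On the log2 scale the AS library was higher by 0.74, below the threshold of 1, or 0.80 from the reads alone (interval 0.59 to 1.01), and Ahr was number 279 of all genes from the top. The receptor was a low gene in both libraries, as 14.3% of all genes with the vehicle and 22.7% with AS had an RPKM no higher. Of the 6163 exon bases of Ahr, 127 are shared with a gene annotated on the opposite strand, Gm48236, and the strand setting of the counting is not given in the sources used here.

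Arnt encodes the partner that AHR needs for DNA binding, and it also serves the hypoxia factors. It lies on chromosome 3, plus strand, from 95434388 to 95497240. Arnt had an RPKM of 11.3 with the vehicle (interval 11.0 to 11.6) and 11.6 with AS (11.3 to 11.97), from 4593 and 4175 reads. These intervals overlap. On the log2 scale the difference of 0.04 had an interval from -0.02 to 0.10, and it turned to -0.03 with TMM scaling, so no direction is given for it. Per length, Arnt stood 11.6 times above Ahr in the vehicle library and 6.87 times above it in the AS library.

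Aldh3a1 showed the largest difference among the 6. It encodes an aldehyde dehydrogenase that oxidises aldehydes such as those from lipid peroxidation, and it belongs to the classical AHR gene battery. The gene lies on chromosome 11, plus strand, from 61207537 to 61218421, with exons of 1942 bases in sum, none of which are shared with another annotated gene. Its RPKM was 15.6 with the vehicle (interval 14.8 to 16.4) and 80.1 with AS (78.2 to 82.0), from 1536 and 6987 reads. The AS library stood far above the vehicle library. Its reads gave a 5.15-fold difference (interval 4.87 to 5.44), and the log2 fold change was 2.36, number 3 of all genes from the top. Aldh3a1 moved from place 3198 to place 628 in the order of all genes by RPKM.

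Nqo1 encodes a quinone reductase that uses NADH or NADPH, and it is a textbook target of both AHR and NRF2. It lies on chromosome 8, minus strand, from 107388225 to 107403206. Nqo1 had an RPKM of 0.912 with the vehicle (interval 0.714 to 1.15) and 3.36 with AS (2.94 to 3.81). Only 72 and 234 reads lay behind these values. The difference was 3.68-fold (interval 2.81 to 4.86), which is 1.88 on the log2 scale from reads alone and 1.77 with 0.1 RPKM added, and 1.19 with 1 RPKM added. It was number 12 of all genes from the top. Nqo1 was thus past the threshold at each amount added, with a size that rests on few reads. Its paralog Nqo2, chosen for comparison after its values were seen, was 4.97 times as high as Nqo1 per length in the vehicle library and 1.33 times as high in the AS library.

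Cyp1b1 and Tiparp, targets commonly read as marks of an active receptor, differed little between the libraries at 24 h. No other time was sampled, and the activity of the receptor itself was not measured. Cyp1b1 encodes a cytochrome P450 that oxidises polycyclic aromatic hydrocarbons and estradiol, and lies on chromosome 17, minus strand, from 79701537 to 79715061. Its RPKM was 3.43 with the vehicle (interval 3.22 to 3.65) and 3.58 with AS (3.36 to 3.82), from 1018 and 940 reads. On the log2 scale the difference was 0.06, with an interval from -0.07 to 0.19, and it was -0.0045 with TMM scaling. Tiparp encodes a mono-ADP-ribosyltransferase that modifies AHR and restrains it, and lies on chromosome 3, plus strand, from 65528410 to 65555518. It had an RPKM of 7.97 in both libraries, from 1765 reads with the vehicle and 1560 with AS. Its log2 fold change of 0.00027 had an interval from -0.10 to 0.10, and was -0.07 with TMM scaling, so no direction is given for Tiparp or Cyp1b1. Tiparp shares 223 of its 4358 exon bases with 4931440P22Rik on the opposite strand.

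**Figure D2:**
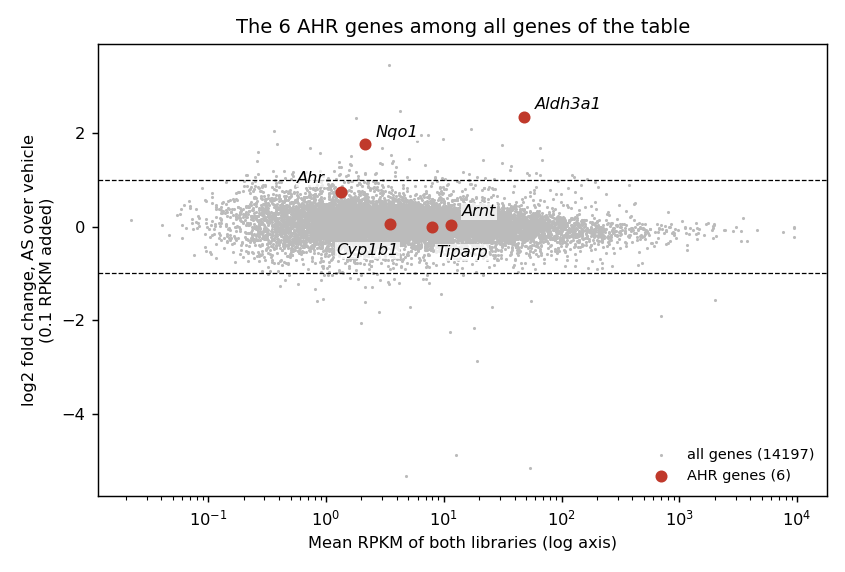
Log2 fold change of AS over vehicle (0.1 RPKM added) against the mean RPKM of both libraries (log axis) for all 14197 genes (grey) and the 6 AHR genes (red), with dashed lines at -1 and 1. Aldh3a1 and Nqo1 lie above the upper line, Ahr lies at 0.74 below it, and the other 3 lie inside the band of all genes.

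The order of the levels differed between the libraries in the place of Nqo1. In the vehicle library it ran from Aldh3a1 through Arnt, Tiparp, Cyp1b1 and Ahr to Nqo1, and the counting intervals of Ahr and Nqo1 overlapped, so these neighbours cannot be ordered. In the AS library Nqo1 stood between Cyp1b1 and Ahr. There the intervals of Cyp1b1 and Nqo1 overlapped, and those of the other neighbours did not. An order with Nqo1 between Cyp1b1 and Ahr in both libraries thus lies within counting error, so a differing order is not shown. Aldh3a1 was 4.54 times as high as Cyp1b1 per length with the vehicle and 22.4 times as high with AS.

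Promoter sequences were matched by symbol for 4 of the 6 genes (not for Ahr and Aldh3a1), in RefSeq's table for GRCm38.p6, as windows of 300 bases that hold 250 before and 50 after the RefSeq start. Those of the 3 matched targets are shown so that the elements both factors bind can be looked for beside the levels of each gene. They were searched on both strands for GCGTG, the core that the AHR and ARNT dimer binds, which is also 1 form of the core of the hypoxia response element. They were also searched for TGACNNNGC, the core of the antioxidant response element, whose last letters GC can overlap the first of GCGTG. Capitals mark each match, and CACGC is GCGTG read on the other strand. The windows are chr8:107403156-107403455 (minus) for Nqo1, chr17:79715012-79715311 (minus) for Cyp1b1 and chr3:65528197-65528496 (plus) for Tiparp, each written 5′ to 3′ along the gene.
Nqo1: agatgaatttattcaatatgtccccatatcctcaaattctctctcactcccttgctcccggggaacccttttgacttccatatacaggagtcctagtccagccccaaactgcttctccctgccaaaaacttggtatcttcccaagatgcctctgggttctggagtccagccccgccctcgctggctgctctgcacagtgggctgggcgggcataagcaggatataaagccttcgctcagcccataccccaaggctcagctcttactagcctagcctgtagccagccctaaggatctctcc
Cyp1b1: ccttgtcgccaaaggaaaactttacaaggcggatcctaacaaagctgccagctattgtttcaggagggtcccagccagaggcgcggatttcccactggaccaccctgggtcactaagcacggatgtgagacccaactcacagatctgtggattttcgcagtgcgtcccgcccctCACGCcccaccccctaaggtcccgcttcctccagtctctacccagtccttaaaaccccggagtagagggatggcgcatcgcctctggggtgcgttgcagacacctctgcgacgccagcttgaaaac
Tiparp: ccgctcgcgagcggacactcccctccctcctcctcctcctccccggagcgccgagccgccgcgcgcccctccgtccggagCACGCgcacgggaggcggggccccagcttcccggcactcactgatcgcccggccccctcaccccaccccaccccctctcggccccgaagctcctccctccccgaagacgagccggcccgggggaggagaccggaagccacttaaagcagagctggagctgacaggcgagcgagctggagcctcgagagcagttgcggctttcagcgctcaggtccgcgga
GCGTG was found once each in the windows of Cyp1b1 and Tiparp, with the first base of the match 76 bases before the RefSeq start in Cyp1b1 and 170 bases before it in Tiparp, and at 0 places in that of Nqo1. The Arnt window held 1 GCGTG and 2 matches of TGACNNNGC, and 0 matches of TGACNNNGC were found in the windows of the 3 targets. Of all 32851 promoters in the table of sequences, 32.4% held GCGTG and 12.4% held TGACNNNGC, and of the 12391 that belong to genes measured here, 50.4% and 14.3% did. A match to so short a core is common and is no binding site by itself, and elements farther from the start were not searched. With 3 targets shown, and without Aldh3a1, nothing is read from the matches about the levels.

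Around the receptor, the genes of its complex and cofactors showed no difference past the threshold. Of 20 genes listed, 18 were in the table, with 0 past a log2 fold change of 1, or past 1.5-fold, either way. Over all genes 0.972% were past 1 and 5.57% past 1.5-fold, so a count of 0 does not set a short list apart. The list's median was 0.01, which turned to -0.06 with TMM scaling. The lowest was Hsp90aa1, a chaperone that holds unliganded AHR, with 659 RPKM in the vehicle library and 522 in the AS library, a log2 fold change of -0.34. The highest was the coactivator gene Ncoa1, with 1.33 and 1.78 RPKM and a log2 fold change of 0.40. Among the bHLH-PAS family, 6 of 16 genes were in the table. None passed 1, the median was 0.35, and Ahr was the highest and Arnt the lowest of the 6. Ahr was also the lowest of these 6 by RPKM in both libraries, and Arnt was the second highest. Of 12 enzymes of the kynurenine and indole routes, which make AHR ligands from tryptophan, 4 were in the table with 0 past the threshold, from Kyat3 at -0.14 to Il4i1 at 0.15.

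The wider list of AHR targets held 23 genes, of which 16 were in the table. Cyp1a1, Cyp1a2 and Ahrr, genes that AHR agonists commonly raise, were absent from it, so whether they differed cannot be seen. The list's median log2 fold change was 0.09. Of the 16 genes, 4 were higher by more than 1 and 0 were lower, where 0.662% and 0.31% of all genes were. At 1.5-fold, 5 were higher and 0 lower, where 3.56% and 2.01% of all genes were. Besides Aldh3a1 and Nqo1, those past 1 were Gsta1 and Slc7a5. Gsta1 is a glutathione S-transferase gene of the AHR gene battery. Slc7a5 is an amino acid transporter gene that is also a known target of ATF4. Gsta1 had an RPKM of 2.92 with the vehicle and 11.7 with AS, a log2 fold change of 1.96, but reads of Gsta1 may be split with near-identical copies. Slc7a5 had an RPKM of 17.5 with the vehicle and 45.03 with AS, a log2 fold change of 1.36. Without the 4 target genes described above, 2 of the other 12 were past 1, and their median was 0.09.

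Of 26 NRF2 targets outside the AHR gene battery, 24 were in the table, with a median of 0.44. Of the 24, 2 were higher by more than 1 and 0 were lower, where 0.662% and 0.31% of all genes were. The 2 were Slc7a11, the cystine transporter gene, with 0.478 RPKM with the vehicle and 6.31 with AS, and Gclc, of glutathione synthesis. Gclc had 5.33 RPKM with the vehicle and 12.3 with AS. At 1.5-fold, 9 of the 24 were higher and 0 lower, where 3.56% of all genes were higher. The list did not rise as a whole. Of the 24, 20 had a log2 fold change above 0, as did 60.9% of all genes, and 4 did not. The lowest was Prdx1, named after its values were seen. It had 96.4 RPKM with the vehicle and 67.5 with AS, a log2 fold change of -0.51. These values stand beside those of Aldh3a1 and Nqo1. The part of NRF2, or of other factors such as ATF4, in the difference of any of these genes was not tested. Nfe2l2, the gene of NRF2 itself, stood at 19.9 RPKM with the vehicle and 23.5 with AS and is named here after its values were seen.

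**Figure D3:**
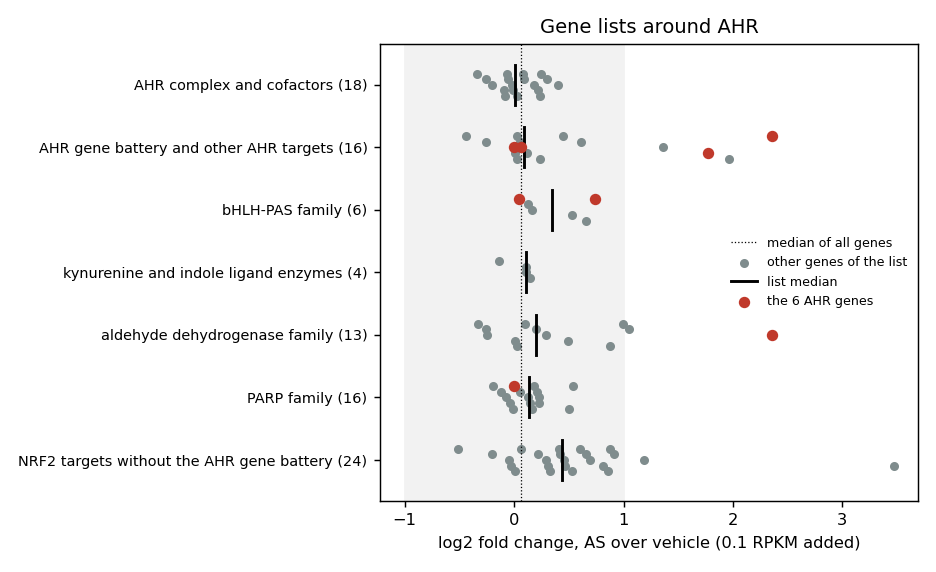
Log2 fold change of AS over vehicle for each gene of the 7 lists around AHR (grey), the 6 AHR genes (red) and the list medians (bars), with the number of genes in the table in brackets, the band from -1 to 1 shaded and the median of all genes dotted. The NRF2 list has its median at 0.44 and the list of AHR targets at 0.09, with 4 of its genes right of the band.

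Within its enzyme family Aldh3a1 went from second to first. Of 20 aldehyde dehydrogenase genes listed, 13 were in the table, and Aldh3a1 held 17.8% of their summed RPKM in the vehicle library and 45.7% in the AS library. Aldh2, the mitochondrial enzyme that clears acetaldehyde, and Aldh3a2 were chosen for comparison after their values were seen. Aldh2 was the highest with the vehicle, and the ratio of Aldh3a1 to it was 0.575 with the vehicle and 2.41 with AS. Aldh3a1 stood 3.46 times above its close relative Aldh3a2 with the vehicle and 12.5 times above it with AS. Of the 13, 2 were higher by more than 1 and 0 were lower, where 0.662% and 0.31% of all genes were. Besides Aldh3a1 itself, this was Aldh18a1, of proline synthesis, from 14.7 to 30.5 RPKM with a log2 fold change of 1.05. Aldh18a1 was within the threshold with each of the 3 other scalings. The family's median was 0.20, and 0.15 without Aldh3a1. Among the 16 PARP family genes in the table, 0 were past the threshold, where 0.972% of all genes were. The median of the 16 was 0.13, from Parp1 at -0.19 to Parp8 at 0.54. Tiparp held 5.29% of the summed RPKM of that family with the vehicle and 5.18% with AS.

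**Figure D4:**
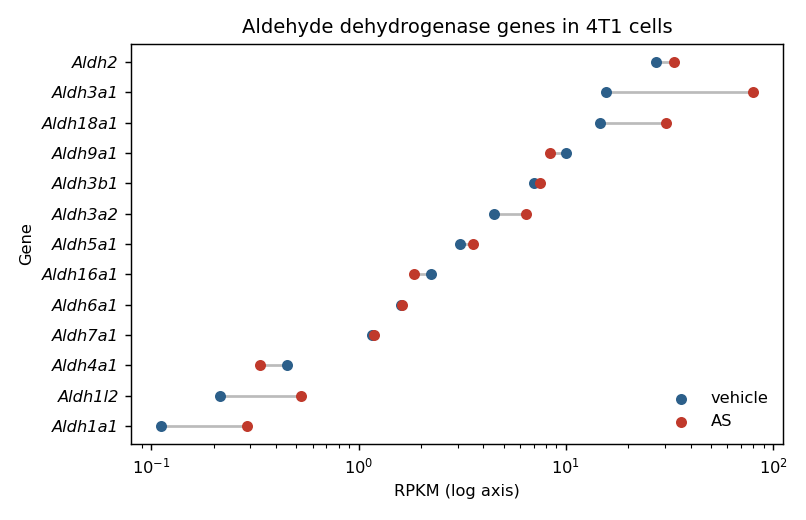
RPKM (log axis) of the 13 aldehyde dehydrogenase genes in the vehicle library (blue) and the AS library (red), in the order of their level in the vehicle library. Aldh3a1 has the longest line, from 15.6 to 80.1 RPKM, and Aldh2 stands above it in the vehicle library only.

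With only 2 libraries, likeness to Aldh3a1 can be given only as closeness of the log2 fold change. Over the 12224 genes whose mean RPKM was 1 or more, the 3 nearest were Gm15416 at 2.32, Gm20652 at 2.47 and Trib3 at 2.10. The first 2 of these rest on 12 and 24 reads in the vehicle library. Trib3, a pseudokinase gene of the stress response, had 6.43 RPKM with the vehicle and 27.9 with AS.

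The values imply library sizes of 44909683 reads for AS and 50820728 for the vehicle, which differ 1.13-fold. All 5 epithelial markers looked at (Krt8, Krt18, Krt7, Epcam and Cdh1) were in the table, at 84.6 RPKM or more in both libraries. Of 13 markers of leukocytes, endothelium, fibroblasts and hepatocytes, 5 were in the table, at 4.24 RPKM or less, and their summed RPKM was 5.85 with the vehicle and 6.16 with AS. Most of that sum was the fibroblast marker Pdgfra, at 4.16 RPKM with the vehicle and 4.24 with AS. In both libraries Pdgfra was above Cyp1b1, Nqo1 and Ahr. Over all genes, 94 were higher by more than 1 and 44 lower, and 75 and 57 when fold changes were centred on the median of all genes.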

How the data were processed

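Total RNA of 2 cultures of 4T1 cells, 1 with AS and 1 with the vehicle, was made into stranded mRNA libraries. The authors deposited 1 table of genes by symbol with the RPKM of each library; its 4 other columns (log2 fold change, mean log2 CPM, p-value and FDR) hold the authors' own comparison and were not used. The submitters' processing notes name fastp 0.23.4, STAR 2.5.3a and featureCounts, without their settings, and the build GRCh38, a human build. The values go with the mouse annotation instead: RPKM times the summed exon length of GENCODE M21 (GRCm38) times 1 constant per library was whole within 0.001 for 12715 of 13502 genes with a single entry (94.2%), all 6 members included, so that annotation gave coordinates and reads. The filter behind the table is not given in the sources used here; 0 genes were listed at 0, and the lowest mean was 31 recovered reads. Reads without molecular identifiers are not independent molecules.

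Fold changes were log2 ratios of RPKM with 0.1 added, called past 1. The study's methods name this fold threshold and also a log2 ratio of 0.585, about the 1.5-fold used here. Both came with a limit on the p-value or FDR that was not applied here. With 1 library per condition no count test was run. The plan's alternatives were 0 or 1 RPKM added, centring on the median, TMM or upper quartile scaling, a mean of at least 1 RPKM and a threshold of 1.5-fold. Genes named are the members, the genes of each of 7 hand-written lists past 1 (up to 4 each way, otherwise the highest and the lowest) and the 3 nearest to the member with the largest change; others are said to be chosen after their values were seen. Members and lists were chosen with earlier results of these data known. The read recovery was also run on simulated counts of the genes already recovered, with the same exon lengths. That run cannot show whether the lengths or the annotation are right. Python 3.11.15, numpy 2.4.6, pandas 2.3.3 and scipy 1.17.1 were used.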

Additional observations from a re-analysis of the deposited data

How the results depend on the processing

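Under all 7 alternatives Aldh3a1 and Nqo1 were higher by more than the threshold and 0 of the 6 genes were lower, and a threshold of 1.5-fold added Ahr. The log2 fold change of Aldh3a1 ran from 2.29 to 2.36 and that of Nqo1 from 1.19 to 1.88. With 1 RPKM added, Nqo1 was at 1.19, Ahr at 0.45 and the median of all genes at 0.051, and 38 genes were higher and 16 lower. With 0 RPKM added, 161 genes were higher and 66 lower, and 4 aldehyde dehydrogenase genes were higher, since Aldh1l2 and Aldh1a1 are low and the added amount holds them under the threshold. Arnt went to -0.026 when centred on the median of all genes, which sets that median to 0, and to -0.027 with TMM scaling, where the median was 0.00069. Upper quartile scaling put the median at 0.013. With each of these 3 scalings 1 aldehyde dehydrogenase gene was higher, Aldh3a1. At 1.5-fold, 505 genes were higher and 286 lower, and 2 genes of the bHLH-PAS family, 4 aldehyde dehydrogenases and 9 NRF2 targets were higher. Of 210 values, the other 190 moved by less than the reach of their interval to one side (of the reads for a gene, of the order statistics for a median), or by 1.5 times or less for counts. Some of the 190 had little or no room to move. The filter on mean RPKM cannot change the fold changes of the 6 genes, which all pass it. For the shortest lists the interval of the median is their whole range. No paired analysis was possible because each condition has 1 library, and for the same reason no library could be left out. Depth limits Nqo1 most, with 72 reads in the vehicle library, and the spread between cultures cannot be measured.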

Other observations

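Genes outside the comparison of the 6 are given as values, and all were chosen after their values were seen. Among the bHLH-PAS family, the clock gene Arntl had 4.01 RPKM with the vehicle and 6.36 with AS, a log2 fold change of 0.65, while its partner Clock was at 0.16. Hif1a, the hypoxia factor that also pairs with ARNT, had 33.9 and 48.9 RPKM, a log2 fold change of 0.53. Among the AHR targets, Xdh, which encodes xanthine dehydrogenase, had 7.44 and 11.4 RPKM, a log2 fold change of 0.61. Aldh1a1 and Aldh1l2 had 28 and 82 reads with the vehicle and 64 and 178 with AS.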
